A study of Rattus norvegicus with 6 samples.

Results

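The genes described here are ligands of the epidermal growth factor (EGF) family and the ErbB receptors that bind them, in the kidney cortex of diabetic rats with and without the herbal preparation Qishen Yiqi dripping pill (QYDP). The members were chosen by name, as the ligands Egf, Btc, Hbegf, Areg, Ereg, Tgfa and Nrg1 and the receptors Egfr, Erbb3 and Erbb4. This gave 10 genes, 7 ligands and 3 receptors, of 18166 genes measured, and each of the 10 had 1 row on the array. Male Sprague-Dawley rats in both groups had been made diabetic with 60 mg/kg streptozotocin, which destroys the insulin-producing cells of the pancreas. The HQYDP group (n = 3) received 300 mg/kg of QYDP per day by gavage for 8 weeks, and the DM group (n = 3) received saline. All 6 rats are given an age of 17 weeks, and the doses come from the study's methods while the labels give the age, the strain and kidney as the tissue. Non-diabetic and low-dose rats were not analysed here.

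EGF-family ligands are made as precursors in the cell membrane and are released by proteases that cut near the membrane. The freed ligand binds a receptor of the ErbB group, the receptor pairs with another one, and its kinase starts the MAP kinase and phosphoinositide 3-kinase cascades. Egfr binds Egf, Tgfa, Areg, Btc, Hbegf and Ereg, while Erbb3 and Erbb4 bind neuregulins such as Nrg1, and Erbb4 also binds Btc, Hbegf and Ereg. In the kidney Egf is made mainly by the thick ascending limb and the distal convoluted tubule, where it also regulates magnesium reabsorption, and several of the other ligands are known as products of injured tubules or immune cells.

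RNA from each rat was read on 1 Affymetrix Rat Gene ST array, and the deposited values are log2 signals per transcript, taken as already normalized. All differences are HQYDP minus DM on this log2 scale. They were tested with limma over all 18166 genes, and the study thresholds are an unadjusted p under 0.05 with a fold over 1.5, which is 0.58 on the log2 scale. Array medians differed by at most 0.15. All 10 proximal tubule markers lay at or above percentile 93.5 of the genes by mean level. All 3 DM arrays, and no HQYDP array, carry a re-analysis mark in their labels, and if this marks another run, run and treatment cannot be told apart in any value here. On the first principal component, which held 35.7% of the variance, DM replicate 3 lay at -14.9 among the HQYDP arrays, at -16.2 to -10.6, and DM replicates 1 and 2 lay at 17.9 and 39.5.

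Egf and Btc were higher in HQYDP kidneys and Nrg1 was lower at the study thresholds, which made 2 members higher and 1 lower. Over all genes 3.28% passed these thresholds with limma, 1.46% higher and 1.82% lower. The study itself reported more genes higher than lower at these thresholds, the reverse of this balance. These shares were 1.57% higher and 1.21% lower without DM replicate 2, 2.09% higher and 4.02% lower without DM replicate 3, and 0.875% higher and 0.655% lower under the methods' t-test. The remaining 7 members did not pass, among them all 3 receptors. No member had an adjusted p under 0.05 from limma, as 3 genes of all tested did (0.0165%). At an unadjusted p under 0.05, which 7.38% of all genes passed, there were 4 members, with Egfr added. Arrays of the groups did not overlap for 5 members, with HQYDP above DM for Egf and Btc and below DM for Nrg1, Egfr and Erbb3, against 12.1% of all genes (6.08% above and 6.01% below). Egf and Btc stand in gene lists that the study selected on these same samples, so that their passing the thresholds is not independent evidence. The median difference was 0.09 over the 10 members, 0.10 over the ligands and -0.29 over the receptors, beside a median of -0.00167 over all genes.

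**Figure D1:**
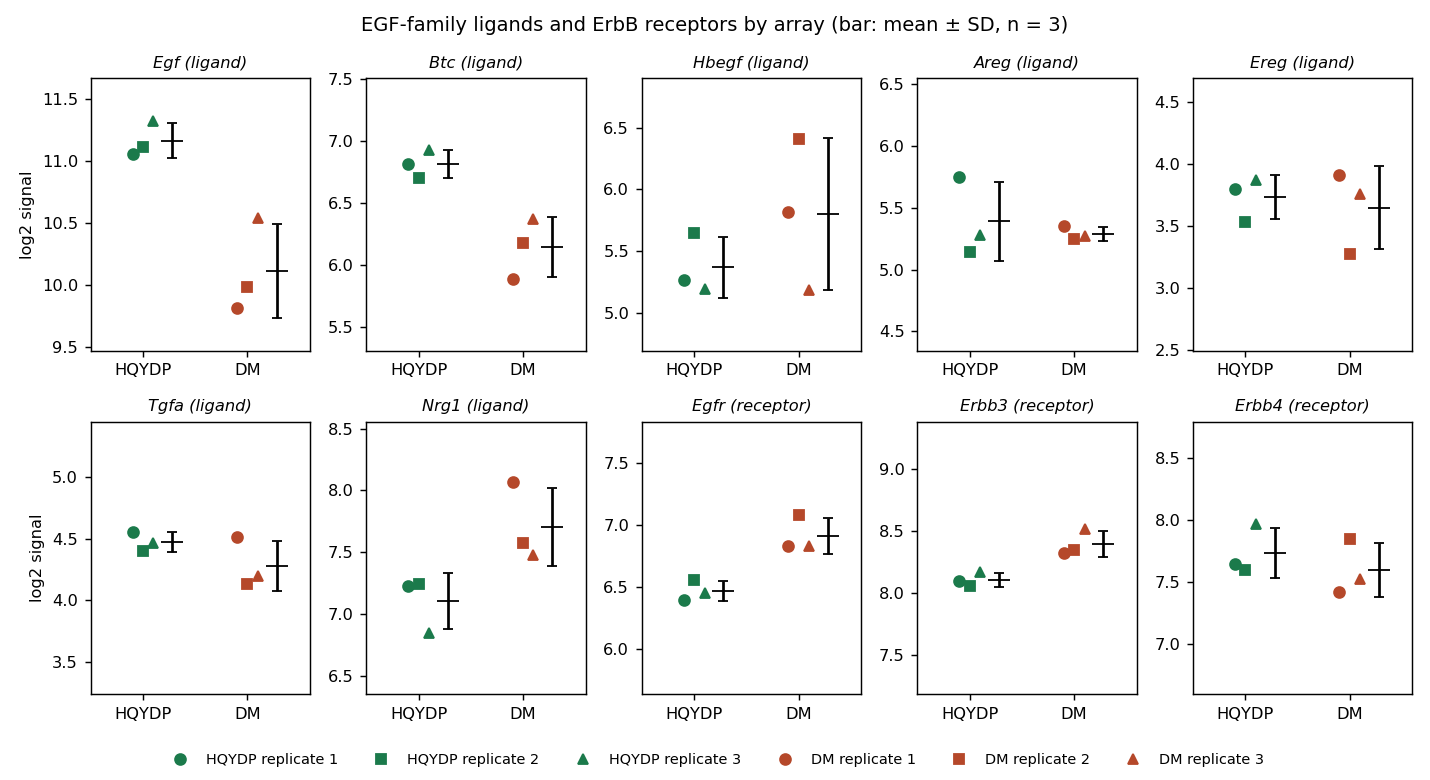
The log2 signal (y axis) of each member is plotted by array for HQYDP and DM, with symbols for the replicates and bars for the mean ± SD of 3 rats. Every panel spans the same number of log2 units. Egf and Btc separate with HQYDP on top, Nrg1, Egfr and Erbb3 separate with DM on top, and the other members overlap.

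Egf, the ligand that gives the family its name, had the largest difference of the 10 members. Its log2 signals were 11.05, 11.11 and 11.33 in HQYDP kidneys, against 9.81, 9.98 and 10.54 in DM kidneys. The HQYDP arrays lay close together and above all DM arrays, and DM replicate 3 was the nearest of the DM arrays to them. The means were 11.16 ± 0.14 in HQYDP and 10.11 ± 0.38 in DM (SD, n = 3 each), 1.05 apart on the log2 scale (adjusted p = 0.233 from limma, standard error 0.21) or a fold of 2.08. Its 95% interval ran from 0.60 to 1.51, which lies above the fold threshold at both ends. Without DM replicate 3 the difference was 1.27 with an adjusted p of 0.0175 from limma, and without each of the other arrays in turn the adjusted p lay between 0.417 and 0.554. Over all 15 settings tried it ran from 0.0175 to 0.721. In these whole-tissue samples fewer cells of a type and less RNA per cell cannot be told apart.

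Btc encodes betacellulin, a ligand of both Egfr and Erbb4. Its log2 signals were 6.82, 6.70 and 6.93 in HQYDP kidneys, against 5.89, 6.18 and 6.37 in DM kidneys. As for Egf, every HQYDP array was above every DM array, and DM replicate 1 was lowest and DM replicate 3 highest among the DM arrays. The log2 difference was 0.67 (adjusted p = 0.34 from limma, standard error 0.17), a fold of 1.59, with a 95% interval from 0.29 to 1.05. Without DM replicate 1 the difference was 0.54 and no longer passed the fold threshold.

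The genes of Btc, Areg, Ereg and Epgn follow each other on chromosome 14 in the RefSeq annotation of GRCr8, with no other protein-coding gene between them. Btc was the one of these 4 neighbours that passed the study thresholds. Areg and Ereg had log2 differences of 0.10 and 0.09, and Epgn, which encodes epigen, had -0.00200. Areg (amphiregulin) had log2 signals of 5.75, 5.14 and 5.28 in HQYDP kidneys and 5.35, 5.24 and 5.27 in DM kidneys. The DM arrays were nearly level, and HQYDP replicate 1 was the highest of the 6. Its difference of 0.10 had a 95% interval from -0.31 to 0.51 (adjusted p = 0.976 from limma). Ereg (epiregulin) had 3.80, 3.53 and 3.87 in HQYDP kidneys and 3.91, 3.27 and 3.76 in DM kidneys, with an interval of the difference from -0.36 to 0.53. Its row was dim, at percentile 16.9 of all genes by mean. Areg turned negative without HQYDP replicate 1, at -0.08, and Ereg without DM replicate 2, at -0.10.

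The sequences before the annotated starts are shown for Egf and Btc, the members that were higher, and for Egfr, a receptor that was lower in every HQYDP array. They come from the RefSeq promoter table of GRCr8, in which 7 of the 10 members were found and Ereg, Nrg1 and Erbb3 were not. The windows are 250 bases before the start, read 5′ to 3′ on the gene's strand, and 34 bases of the Egf window that fall inside the gene record are searched but not printed. Capitals mark matches to the motifs searched on both strands, the AP-1 motif TGANTCA, the CRE motif TGACGTCA, the GC box GGGCGG and the HNF1 motif, with a GC box on the other strand reading CCGCCC. The matches do not overlap one another here.
Egf, chr2:220976332-220976547, minus strand: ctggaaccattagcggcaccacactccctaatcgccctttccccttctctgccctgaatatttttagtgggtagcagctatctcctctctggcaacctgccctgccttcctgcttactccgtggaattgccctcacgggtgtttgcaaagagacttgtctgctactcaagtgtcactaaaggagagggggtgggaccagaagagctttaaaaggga
Btc, chr14:16992418-16992667, plus strand: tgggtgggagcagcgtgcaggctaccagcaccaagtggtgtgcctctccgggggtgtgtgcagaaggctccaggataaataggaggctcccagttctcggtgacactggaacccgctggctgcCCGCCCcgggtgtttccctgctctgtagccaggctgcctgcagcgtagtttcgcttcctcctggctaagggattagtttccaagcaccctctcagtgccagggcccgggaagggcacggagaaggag
Egfr, chr14:95378376-95378625, plus strand: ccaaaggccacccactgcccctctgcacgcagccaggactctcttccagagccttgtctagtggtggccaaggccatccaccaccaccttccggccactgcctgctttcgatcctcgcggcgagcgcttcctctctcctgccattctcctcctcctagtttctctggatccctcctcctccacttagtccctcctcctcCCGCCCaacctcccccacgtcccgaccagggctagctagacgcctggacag

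No motif was matched in the Egf window. The windows of Btc and Egfr each held 1 GC box, 127 and 51 bases before the start, and so did those of Erbb4 and Areg. The Tgfa window held one 154 bases before the start, but 170 bases of that window fall inside the gene record and the match lies there. Of all 33469 promoter windows 30.5% held a GC box. The Areg window also held a CRE, at 91 bases before the start, which 1.59% of all windows held. None of the 7 windows held an AP-1 or HNF1 motif, against 6.34% and 0.00299% of all windows. This strict HNF1 motif matched only 1 of all 33469 windows, so its absence here tells nothing about HNF1 sites. Of the sequence, the GC share was 51.6% for Egf, 62.8% for Btc and 63.6% for Egfr, beside a median of 51.2% over all windows. A match describes letters in a window and was not tested as a binding site.

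Hbegf encodes heparin-binding EGF-like growth factor, an early product of injured cells. Its log2 signals were 5.27, 5.65 and 5.20 in HQYDP kidneys, against 5.81, 6.41 and 5.18 in DM kidneys. DM replicates 1 and 2 were above all HQYDP arrays, but DM replicate 3 was the lowest array of all, so the groups overlapped. The log2 difference of -0.43 (adjusted p = 0.85 from limma, standard error 0.28) did not pass, with an interval from -1.06 to 0.20. Without DM replicate 3 it was -0.74 and passed the study thresholds (adjusted p = 0.228 from limma, in a range of 0.228 to 0.999 over 14 settings), and without DM replicate 2 it was -0.13.

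Tgfa, which encodes transforming growth factor α, another ligand of Egfr, was dim at percentile 28.9. It had 4.55, 4.40 and 4.47 in HQYDP kidneys and 4.51, 4.14 and 4.20 in DM kidneys. DM replicate 1 lay among the HQYDP arrays and the other DM arrays lay below them. The log2 difference was 0.19 with an interval from -0.17 to 0.55 (adjusted p = 0.91 from limma).

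Nrg1, a neuregulin that binds Erbb3 and Erbb4, was the member that was lower at the study thresholds. Its log2 signals were 7.23, 7.24 and 6.85 in HQYDP kidneys, against 8.06, 7.57 and 7.48 in DM kidneys. All HQYDP arrays were below all DM arrays, with HQYDP replicate 3 the lowest and DM replicate 1 the highest. The log2 difference was -0.60 (adjusted p = 0.493 from limma, standard error 0.20), with an interval from -1.05 to -0.15, so that its size was just past the fold threshold. Without HQYDP replicate 3 it was -0.47 and without DM replicate 1 it was -0.42, neither of which passed. The methods' t-test gave an unadjusted p of 0.0551 for Nrg1 on the same values, which did not pass either.

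**Figure D2:**
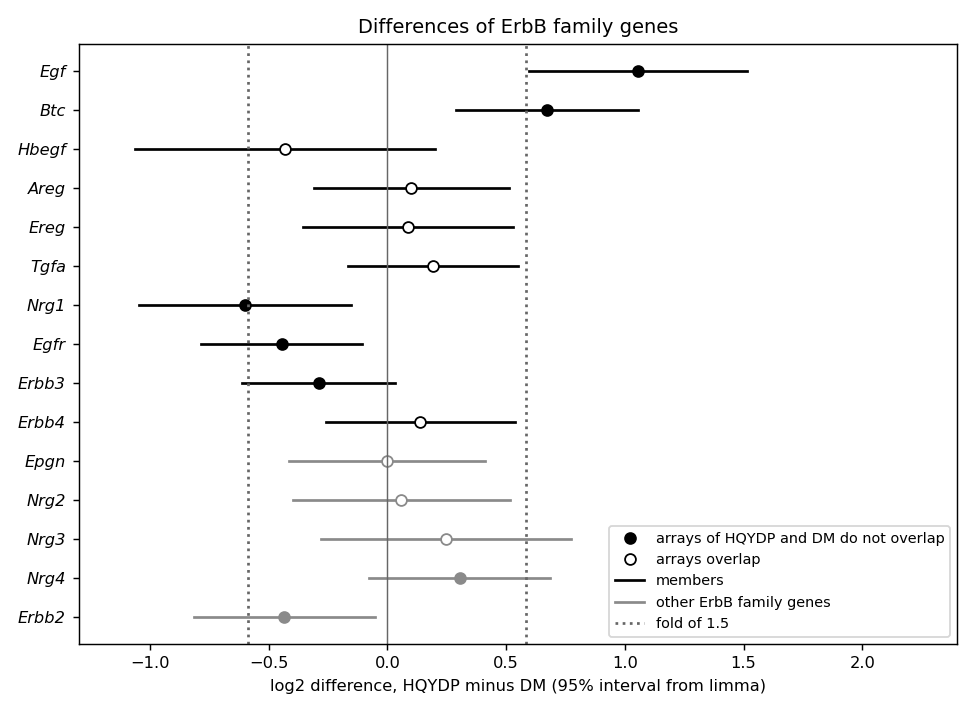
Points give the log2 difference of HQYDP minus DM (x axis) with its 95% interval from limma for the 10 members in black and 5 other genes of the family in grey, filled where the arrays of the groups do not overlap. The dotted lines mark a fold of 1.5. Egf has its whole interval above the upper line. The points of Egfr, Erbb3 and Erbb2 are negative and inside the lines, but their intervals reach past the lower line.

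No receptor transcript passed the study thresholds. Egfr, the receptor of Egf and its close relatives, had log2 signals of 6.40, 6.56 and 6.45 in HQYDP kidneys, against 6.83, 7.08 and 6.83 in DM kidneys. All HQYDP arrays were below all DM arrays, and the nearest 2 arrays across the groups were HQYDP replicate 2 and DM replicate 1. The log2 difference was -0.45 (adjusted p = 0.501 from limma, standard error 0.15), with an interval from -0.78 to -0.11, and was below the fold threshold. When any 1 array was left out it stayed between -0.49 and -0.36.

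Erbb3, a neuregulin receptor with a weak kinase of its own, had 8.09, 8.05 and 8.16 in HQYDP kidneys, against 8.32, 8.34 and 8.51 in DM kidneys. The groups did not overlap and the spread within each was small, with SDs of 0.06 in HQYDP and 0.10 in DM (n = 3 each). The log2 difference was -0.29 (adjusted p = 0.737 from limma, standard error 0.14), with an interval from -0.61 to 0.03. Erbb4, which binds neuregulins and Btc, had 7.65, 7.59 and 7.97 in HQYDP kidneys and 7.42, 7.85 and 7.53 in DM kidneys. Its groups overlapped and its difference of 0.14 had an interval from -0.26 to 0.54 (adjusted p = 0.955 from limma). An exact two-sided permutation test of 3 rats against 3 cannot go below p = 0.1, and it gave that smallest value for Egf, Btc, Nrg1, Egfr and Erbb3 and 0.3 to 0.8 for the other members.

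Of 5 other genes of the family, none passed the study thresholds. Erbb2, the receptor that binds no ligand and serves as partner to the others, had log2 signals of 6.51, 6.61 and 6.48 in HQYDP kidneys, against 7.07, 6.67 and 7.16 in DM kidneys. It lay below DM in every HQYDP array, as Egfr and Erbb3 did, at a difference of -0.43 on the log2 scale (adjusted p = 0.591 from limma, standard error 0.17). Nrg4, another neuregulin, separated the other way, with 3.81, 3.89 and 3.66 in HQYDP kidneys and 3.64, 3.21 and 3.59 in DM kidneys, at a difference of 0.30 (adjusted p = 0.796 from limma). The Nrg4 row was dim, at percentile 16.1 by mean. Nrg2 and Nrg3, dim as well, had differences of 0.06 and 0.25 with overlapping groups. The median of these 5 genes was 0.06.

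Within the groups, the DM arrays spread more widely than the HQYDP arrays for 9 of the 10 members, all but Areg, and for 64.4% of all genes. The SD of Egf was 0.14 in HQYDP and 0.38 in DM, and that of Hbegf 0.25 in HQYDP and 0.61 in DM (n = 3 each). DM replicate 3 was the DM array nearest to the HQYDP mean in Egf, Btc, Hbegf, Ereg and Nrg1, and the DM array farthest from it in Erbb3.

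Genes with nearly the same profile as Egf over the 6 arrays were Melk, a kinase of dividing cells, Atp6v1g3, a subunit of the proton pump, Afm, which encodes afamin, Fbxo36 and Gucy1b2, a subunit of guanylate cyclase. The likeness was the root mean square difference of values centred on each gene's mean, and it was 0.12 to 0.15 on the log2 scale for these 5. All of them were higher in HQYDP at the study thresholds, by 0.87 to 1.06. They were picked for their likeness to Egf on these same values, so this follows from the choice and is no separate result. Afm is in the gene lists of the study. The nearest to Hbegf were Iglc1, an immunoglobulin light chain, Cd93, Tmem154, RT1-DMb, which helps load class II molecules, and Ptgs1, cyclooxygenase 1. Their root mean square differences were 0.06 to 0.10, and none of the 5 passed the study thresholds. These too were picked on the same values.

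Thick ascending limb markers, of the segment that makes Egf, were partly higher in HQYDP kidneys too. Of 10 markers 9 were measured, of which 3 passed the study thresholds as higher and 0 as lower, beside 1.46% and 1.82% of all genes. The differences were positive for 7 and negative for 2, Cldn19 with -0.07 and Ptger3 with -0.21. Slc12a1, the salt carrier of this segment, had 0.20 with overlapping groups. The 3 that passed were the calcium-sensing receptor Casr with a log2 difference of 0.89, Cldn16, a claudin of the magnesium path, with 0.73, and uromodulin, Umod, with 0.65. The list median was 0.34. The mean of the centred values of the list was 0.14 to 0.22 on the HQYDP arrays and -0.28 to -0.04 on the DM arrays, so the groups did not overlap. DM replicate 1, with the lowest Egf of all arrays, had the highest score of the DM arrays, and DM replicate 3, with the highest Egf of the DM arrays, had the lowest. Without DM replicate 3, 1 marker of the list passed as higher, beside 2.09% of all genes. Without DM replicate 2, 3 passed, beside 1.57%, and the methods' t-test also gave 3, beside 0.875%. Casr and Umod stand in the gene lists of the study as well. None of the 7 measured distal convoluted tubule markers of 8 passed, and all 7 differences were positive, with a median of 0.35. Calb1 was highest at 0.55, and scores were 0.06 to 0.28 in HQYDP and -0.47 to 0.13 in DM. Without DM replicate 3, 2 of these markers passed as higher, beside 2.09% of all genes, and without DM replicate 2 the median was 0.19. The part of these segments in the Egf difference was not tested.

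Of the magnesium handling genes, a list not limited to known targets of Egf, 11 of 14 were measured. With limma 2 were higher and none lower, beside 1.46% and 1.82% of all genes. The methods' t-test gave the same counts, beside 0.875% and 0.655%. The differences were positive for 6 and negative for 5 of the 11, with a median of 0.35, or 0.19 without DM replicate 2. The potassium channel Kcnj10 had a log2 difference of 0.93 and Cldn16, which is in the thick limb list as well, 0.73. The magnesium transporter Cnnm2 had 0.579 with all HQYDP arrays above all DM arrays (adjusted p = 0.426 from limma). At a fold of 1.49 it just missed the fold threshold. Its relative Cnnm4 had -0.37 with all HQYDP arrays below all DM arrays, but did not pass the fold threshold either (adjusted p = 0.575 from limma). Trpm6, the magnesium channel that Egf is known to activate, had 7.23, 7.43 and 7.24 in HQYDP kidneys and 6.93, 6.65 and 7.28 in DM kidneys. DM replicate 3 lay among the HQYDP arrays, and the difference of 0.35 did not pass (adjusted p = 0.775 from limma, standard error 0.19). Without DM replicate 3, 1 gene of the list passed as higher, beside 2.09% of all genes. Kcnj10 is in the study's gene lists too.

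**Figure D3:**
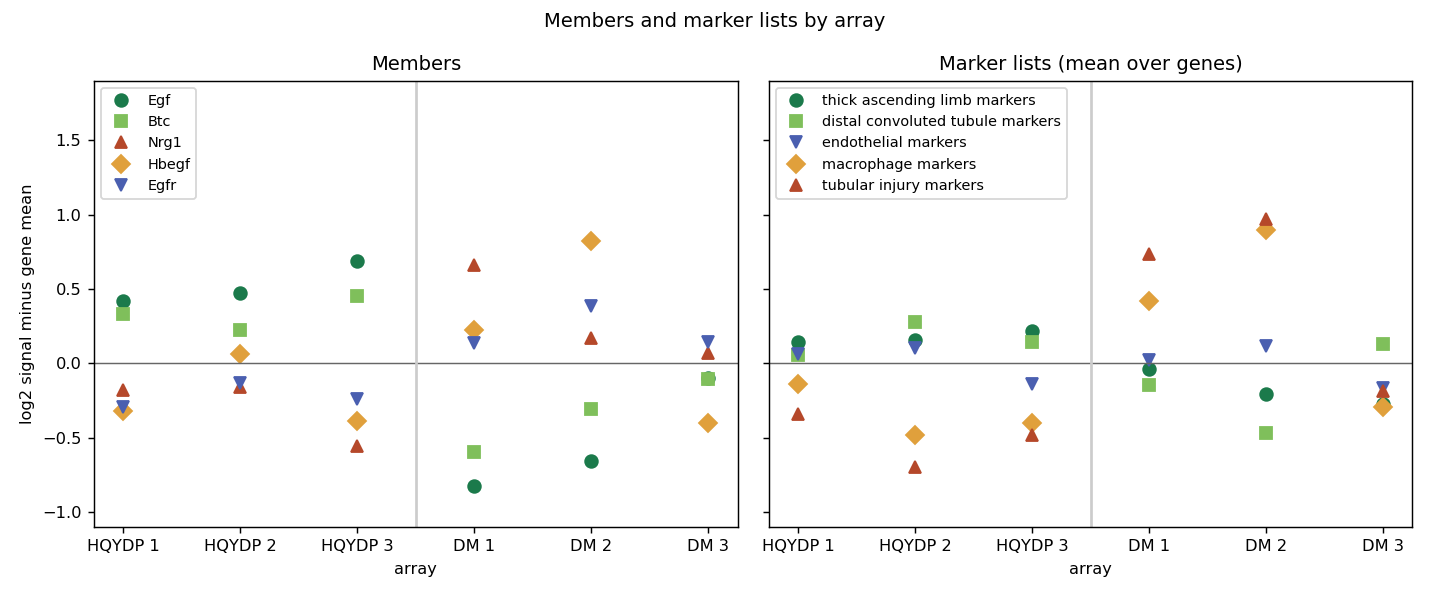
The left panel plots 5 members and the right panel 5 marker lists by array (x axis), as log2 signal minus the mean of the gene over the 6 arrays, averaged over the genes of a list. Egf and Btc lie above 0 in the HQYDP arrays and below it in the DM arrays, and Hbegf and the macrophage and injury lists are highest in DM replicate 2.

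Proteases and carriers that release the ligands were measured for 10 of 12 genes. Mep1a, the α subunit of the brush border protease meprin, had a log2 difference of 0.73 and was higher, and Rhbdl2, a rhomboid protease, had -0.98 and was lower. The Rhbdl2 row was dim, at percentile 20.3 by mean. Over all genes 1.46% passed as higher and 1.82% as lower. Mep1a is in the gene lists that the study selected on these samples. In this list 2 genes were lower without DM replicate 3, beside 4.02% of all genes. Adam17, the main protease for Tgfa, Areg and Hbegf, had 6.97, 6.81 and 7.04 in HQYDP kidneys and 6.87, 7.51 and 7.12 in DM kidneys. Its groups overlapped, at a difference of -0.23 (adjusted p = 0.904 from limma), and the list median was -0.23.

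Inside the cell, none of the 26 measured adaptors and kinases of 30 passed the study thresholds, with a median of -0.08, or -0.04 without DM replicate 2. Pik3r1, the regulatory subunit of phosphoinositide 3-kinase, had the largest difference, -0.58, and without DM replicate 3, 2 of these 26 genes were lower, beside the 4.02% of all genes. Of 18 measured feedback inhibitors of 19, 1 was lower and none higher, beside 1.82% and 1.46% of all genes. Among the 18, 16 had a negative difference, with a median of -0.20. The one past the thresholds was Dusp6, a phosphatase of the MAP kinases, with 7.15, 7.11 and 6.69 in HQYDP kidneys, against 7.43, 8.06 and 7.28 in DM kidneys. DM replicate 2 was the highest, and the log2 difference was -0.61 (adjusted p = 0.569 from limma, standard error 0.23). Dusp6 was also the 1 of 10 MAP kinase output genes that passed, beside 1.82% of all genes lower, in a list whose median was -0.22. The output list shares further genes with the feedback list, so their counts are not separate results. Under the methods' t-test Dusp6 had an unadjusted p of 0.0964. No gene of either list passed that test, beside 0.875% of all genes higher and 0.655% lower. Without DM replicate 2 no gene of the feedback or output lists passed, and without DM replicate 3 there were 3 and 2 lower, beside 1.21% and 4.02% of all genes. Errfi1, which blocks the Egfr kinase, had -0.54 (adjusted p = 0.618 from limma) with overlapping groups.

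Markers of cells known as sources of Hbegf, Areg or Ereg were lower in part. Of 12 macrophage markers 7 passed the study thresholds as lower with limma, beside 1.82% of all genes. They were led by Mrc1 with -1.19, Cd68 with -0.90, C1qb with -0.89 and Csf1r with -0.84. Under the methods' t-test 0 of the 7 passed, beside 0.655% of all genes. The median of the macrophage list was -0.64, or -0.42 without DM replicate 2, and scores were -0.48 to -0.14 in HQYDP and -0.30 to 0.90 in DM. Of 14 tubular injury markers 9 passed as lower, led by Havcr1, which encodes KIM-1, with -2.54, Spp1 with -2.07, Lcn2 with -2.04 and Clu with -1.80. Under the methods' t-test 2 of the 9 passed, Spp1 and Cdkn1a, and Havcr1 did not (unadjusted p of 0.0986). Spp1 and Cdkn1a both stand in the gene lists that the study selected on these same samples, so their passing is not independent evidence. The median of the injury list was -0.92, or -0.50 without DM replicate 2, and scores were -0.70 to -0.34 in HQYDP and -0.19 to 0.97 in DM. Of 7 measured fibroblast markers 2 passed as lower with limma, Pdgfrb with -0.71 and Col1a1 with -0.68, beside 1.82% of all genes. None did under the methods' t-test, beside 0.655%. The median of the fibroblast list was -0.57, or -0.22 without DM replicate 2. DM replicate 2, the highest in Hbegf, had the highest score in all 3 lists. Without it 1 macrophage marker, 4 injury markers and no fibroblast marker passed, beside 1.21% of all genes. There were 11, 9 and 3 without DM replicate 3, beside 4.02% of all genes. Endothelial markers, of cells that make Nrg1, had a median of 0.07 over 6 measured of 8 with none past the thresholds, Ehd3 farthest at 0.41, and scores of -0.14 to 0.10 in HQYDP and -0.17 to 0.11 in DM. None of the 4 measured podocyte, 10 proximal tubule or 4 medullary markers passed, with medians of 0.43, -0.07 and -0.24. The largest differences in these lists were 0.49 for Nphs1, -0.29 for Slc22a8 and -0.38 for Slc5a3. The podocyte scores did not overlap, at 0.10 to 0.25 in HQYDP and -0.29 to -0.14 in DM. The part of these cells in the values of the ligands was not tested.

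**Figure D4:**
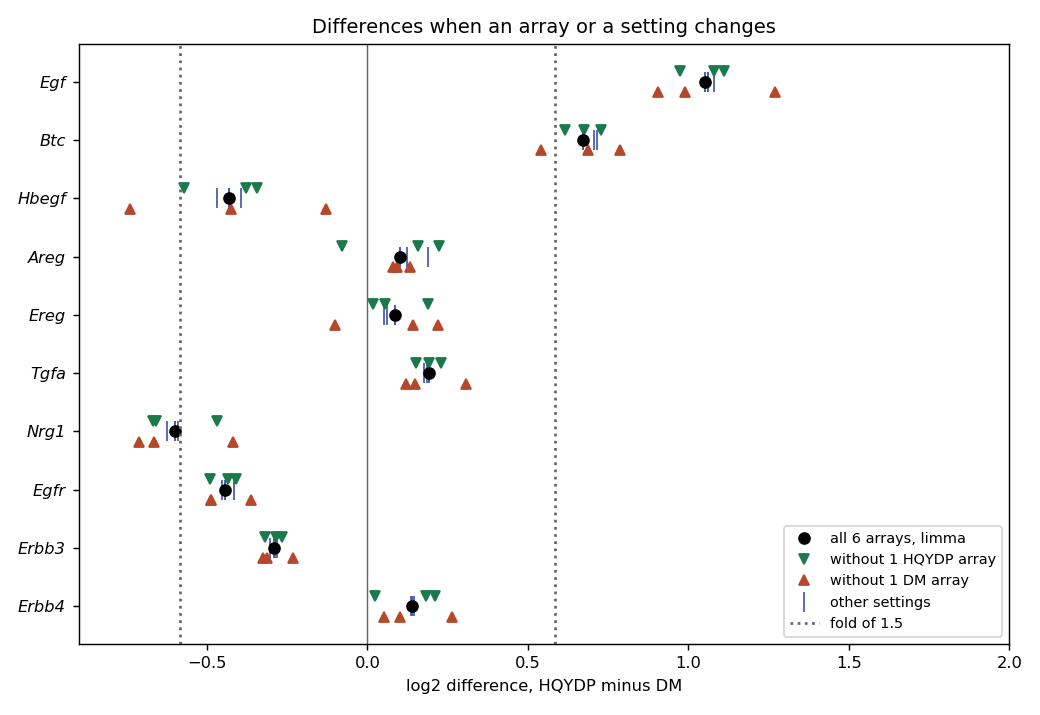
Each member's log2 difference of HQYDP minus DM (x axis) is plotted for all 6 arrays (black), without 1 array of either group (triangles) and under the other settings (ticks), with dotted lines at a fold of 1.5. Egf stays beyond the line throughout, Btc, Nrg1 and Hbegf cross it when an array is left out, and Areg and Ereg cross 0.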

How the data were processed

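The authors deposited log2 signals of 36685 transcript rows for 6 Affymetrix arrays of kidney cortex RNA, 1 per rat, and no normalization or summarization method is stated in the sources used here. Base 2 was inferred from the range of 0.35 to 13.6. Rows with exactly 1 platform symbol were kept (18511 rows), with the highest-mean row per gene, which left 18166 genes, dim ones included. All 10 members matched the RefSeq table of GRCr8 by Entrez ID. The arrays name no build, so coordinates are given for the promoter windows only. HQYDP was set against DM with limma 3.58.1 under R 4.3.3, using lmFit and eBayes without covariates, two-sided, and p-values were adjusted over all genes by Benjamini-Hochberg. Intervals are 95%. The fit was tested on simulated data.

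The members, the 15 gene lists and the tests were chosen with earlier results of these data known. The text names all members, up to 4 genes of each list past the study thresholds or else the one with the largest difference, and the 5 profiles nearest to Egf and Hbegf. Adam17, Errfi1, Trpm6, Cnnm2, Cnnm4, Cdkn1a, Slc12a1, Cldn19, Ptger3, Epgn and the other neuregulins were named outside this rule after their values were seen. Alternatives were the methods' t-test, array weights, an intensity trend, a replicate block, median centring, quantile normalization, the mean of rows per gene, other fold rules, filters on dim genes and leaving out each array. Lists were also counted without DM replicate 2 or 3 and under the methods' t-test, a choice made after seeing the data. The number of arrays limits the precision.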

Additional observations from a re-analysis of the deposited data

How the results depend on the processing

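Of 145 member values over 15 settings, 138 kept their direction and their side of the study thresholds. Egf passed in all 15, and Areg and Ereg turned when 1 array was left out. Left out in turn, the arrays gave log2 differences of 0.91 to 1.27 for Egf, 0.54 to 0.79 for Btc, -0.74 to -0.13 for Hbegf, -0.08 to 0.22 for Areg, -0.10 to 0.22 for Ereg, 0.12 to 0.31 for Tgfa, -0.71 to -0.42 for Nrg1, -0.49 to -0.36 for Egfr, -0.32 to -0.23 for Erbb3 and 0.02 to 0.26 for Erbb4. The reversed values were -0.0792 for Areg without HQYDP replicate 1 and -0.102 for Ereg without DM replicate 2. The cause was not tested. The members past the thresholds were then 1 to 2 higher and 0 to 2 lower, and all genes 272 to 397 higher and 219 to 730 lower, with 0 to 151 at an adjusted p under 0.05. Under the methods' t-test Nrg1, at -0.599, did not pass, which left 2 members higher and 0 lower, with 159 genes higher, 119 lower and 0 at the adjusted threshold. With a fold over 2, 1 member was higher and 0 lower, and 43 and 80 genes. With no fold rule 2 members were lower, and 658 genes higher and 682 lower. Among genes above the median mean 154 were higher, 208 lower and 7 passed the adjusted threshold, fewer genes being tested. The adjusted threshold was passed by 8 genes with the intensity trend, 16 with array weights and 9 above the lower quartile of means.

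Same-numbered arrays of the groups share only a number, with correlations of their deviations of 0.14, -0.08 and 0.21. With the replicate block 2 members were higher and 1 lower, at 1.05 for Egf, 0.672 for Btc and -0.599 for Nrg1, beside 287 genes higher, 374 lower and 2 at the adjusted threshold, and it changed no member's call. No value is a count, so signal over background limits the dim rows, which among the members were Ereg and Tgfa. Outside the members Epgn, Nrg2, Nrg3, Nrg4 and Rhbdl2 were dim too, at percentiles 9.8 to 20.3 by mean.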
